A study of Macaca mulatta and Mus musculus and Rattus norvegicus with 12 samples.

Results

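The comparison described here is that of rat calvaria, the flat bone of the skull vault, with rat tibia, a weight-bearing long bone, each represented by 1 RNA-seq library of bone enriched for osteocytes. Genes were kept where 20 or more reads fell on them in at least 1 of the libraries, which left 13247 measured genes of 35487 rows that name a gene. The quantity followed was the log2 ratio of calvaria over tibia in RPM (reads for every 1000000 reads on named genes of a library), with 1 read added to each count, so that a negative value is a gene higher in tibia. With 1 library for each bone there was no replicate, so no difference was tested and no p-value is given. Intervals at the 95% level (exact, conditional on the pair of counts, without the added read) cover counting error only.

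The study set flat and long bones side by side in mouse, rat and rhesus macaque, and the rat libraries are 2 of its 12. Both came from female Wistar rats aged 6 months. Each library was pooled from 2 rats as one pair of skull and long bone, so the spread between rats cannot be seen. Marrow was spun out of the cut tibias, whereas the calvariae were trimmed of sutures and cut clear of the marrow spaces, and in both the periosteum was scraped away and surface cells were loosened with collagenase before the bone was powdered.

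Osteocytes are former osteoblasts that have been buried in the mineral they made. They lie in small cavities joined by fine canals, sense loading of the bone, and signal to osteoblasts and osteoclasts on its surface, while also taking part in the control of phosphate. The vault of the skull forms largely from neural crest and mesoderm of the head without a cartilage model, whereas the tibia forms on a cartilage model from limb mesoderm, and homeobox transcription factors laid down in the embryo mark such differences in position.

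The calvaria library held 14255423 reads on named genes and the tibia library 12233256. The 10 most abundant genes took 29.7% of the calvaria reads and 21.97% of the tibia reads, and most of these are genes of red cells and neutrophils. Both libraries are therefore mixtures, and in bulk RNA fewer cells of a type cannot be told apart from less RNA per cell. The osteocyte label was checked against its markers. Dmp1, Mepe, Phex and Pdpn were all well covered, whereas Sost, the gene of the Wnt inhibitor sclerostin, had 5 reads in calvaria and 15 in tibia, and Fgf23, the phosphate-regulating hormone of osteocytes, was listed at 0 in both. In mouse, Sost stood at 659 and 1302 RPM in the calvaria libraries and at 6233 and 8387 RPM in the tibia libraries. Several genes that cells use in common, among them Rpl8, Rps6, Rps9, Hprt1 and Hsp90aa1, were also listed at 0 in both rat libraries, as was Col1a2, which encodes a chain of type I collagen. A rat value at or near 0 is for this reason given only as listed, and the cause was not tested.

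On the scale of library size the ratio leaned towards tibia across the whole table. The median over the measured genes was -0.28, the middle 90% lay between -2.14 and 0.79, and 10405 genes (78.5%) stood within 1 of 0. Past a log2 ratio of 2, which is a 4-fold difference, 761 genes (5.74%) were higher in tibia and 56 (0.423%) were higher in calvaria, so that of the 817 genes past 2 in either direction (6.17%) 93.1% were higher in tibia. Scaling by trimmed means (TMM), which sets the bulk of genes equal, moved the median by 0.29 to 0.01 and gave 558 genes higher in tibia and 102 higher in calvaria, or 84.5% higher in tibia. Counts of members below or above 0 are on the scale of library size, and a gene between -0.28 and 0 there lies above 0 after TMM scaling. The 25th percentile of all measured genes was -0.78 and the 75th percentile 0.13, so most measured genes were themselves below 0. Counts of list members below 0 are to be read beside that, and counts past 2 beside the 5.74% and 0.423% of all measured genes. At the filter, 98 genes had exactly 20 reads in their higher library and were kept, and 103 had exactly 19 and were not. A gene with 20 reads in only 1 bone was measured through that bone, which bears on the counts and medians of every list. Among the genes with 100 or more reads in their higher library, 371 were past 2 towards tibia and 12 towards calvaria.

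**Figure D1:**
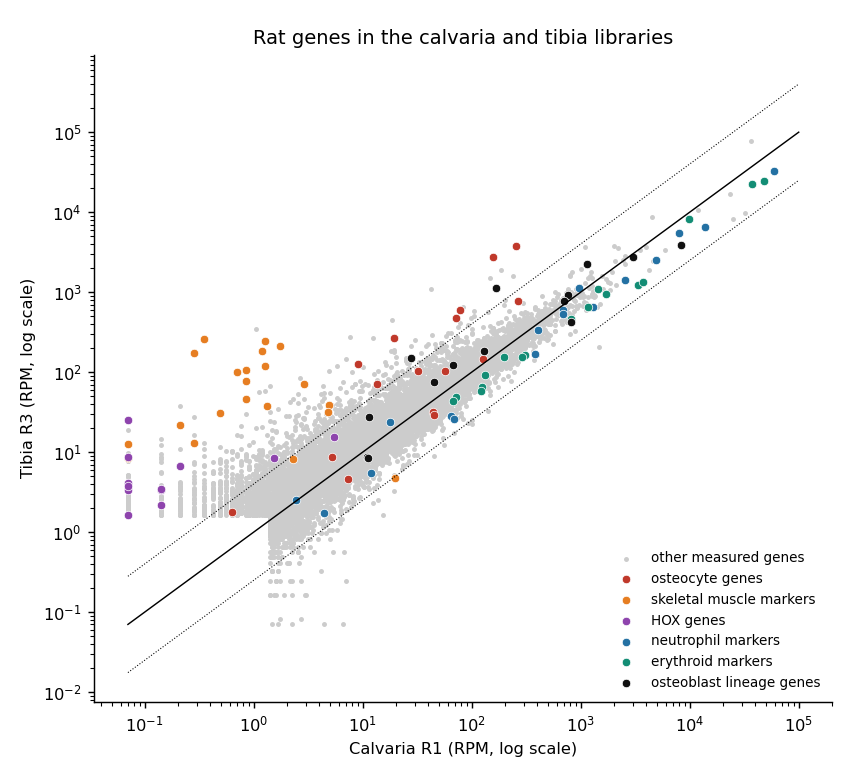
RPM of each measured rat gene in the calvaria library (x axis, log scale) and the tibia library (y axis, log scale), with 6 groups of genes in colour. A gene with 0 reads is drawn at the level of 1 read in the deeper library, the solid line marks equal values and the dotted lines mark a 4-fold difference. Most osteocyte genes, HOX genes and skeletal muscle markers lie above the solid line, and erythroid and neutrophil markers lie mainly below it.

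Genes of the osteocyte were higher in tibia, and some of them held the most reads of all genes past 2. Mepe, a matrix phosphoglycoprotein made by osteocytes, had 3641 reads in calvaria and 45587 in tibia, or 255 against 3726 RPM, which is 14.6-fold higher in tibia (log2 ratio -3.87, interval -3.92 to -3.82). Dmp1, an acidic matrix protein needed for mineralisation and phosphate control, had 2243 and 34033 reads, or 157 and 2782 RPM, and was 17.7-fold higher in tibia (log2 ratio -4.14, interval -4.21 to -4.08). Counting error is thus small beside either difference. Phex, the endopeptidase whose loss causes phosphate wasting, had 1112 and 7410 reads and a log2 ratio of -2.96. Pdpn, the glycoprotein of early osteocyte processes, had 130 and 1554 reads (log2 ratio -3.79). These genes too stood lower in the calvaria library. Irx5, an iroquois homeobox factor, had 274 and 3308 reads (-3.81), the secretory kinase Fam20c 1013 and 5780 (-2.73), and the receptor phosphatase Ptprz1 192 and 879 (-2.41).

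Of the 17 measured genes of the osteocyte list, 7 were past 2 towards tibia, 14 were below 0 and the median was -1.54, beside -0.28 over all measured genes. The remaining members showed that the list did not move as a block. The gap junction gene Gja1, which couples osteocytes, had 3774 and 9400 reads (-1.54), and the phosphate transporter Slc20a1 had 1791 and 1796 (-0.22). Only 3 genes were higher in calvaria, namely the actin-capping gene Capg at 631 and 387 reads (0.48), the sphingomyelinase Smpd3 at 642 and 352 (0.64) and the phosphatase Phospho1 at 105 and 57 (0.65). The last pair act in the first steps of mineral formation. Blood markers moved the opposite way to the osteocyte list, with 17 measured erythroid markers at 10.9% of calvaria and 6.16% of tibia reads and 17 measured neutrophil markers at 9.33% and 5.17%, Gata1 being the erythroid marker listed at 0, and their part in the osteocyte ratios was not tested.

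The osteoblast lineage list stood apart from the osteocyte list in its middle and in its most abundant members. Col1a1, the main chain of bone collagen, had 117723 reads in calvaria and 48038 in tibia, or 8258 and 3927 RPM, and was 2.10-fold higher in calvaria (log2 ratio 1.07, interval 1.06 to 1.09). Bglap, which encodes osteocalcin, had 11549 and 5211 reads (0.93), and the matrix protein gene Sparc had 43336 and 33621 (0.15). Ibsp, a mineral-binding sialoprotein of bone, had 10855 and 11250 reads (-0.27), which is close to the median of all genes. These abundant matrix genes were thus level between the bones or higher in calvaria. On the other side stood Spp1, encoding osteopontin, at 16217 and 27312 reads (-0.97), the homeobox factor Dlx5 at 397 and 1820 (-2.41) and Mef2c, a transcription factor that drives Sost, at 2395 and 13644 (-2.73). Runx2, the factor that commits cells to bone, had 640 and 916 reads (-0.74). Of 14 measured members, 2 were past 2 towards tibia, 5 were above 0 and the median was -0.38. The same calvaria library thus had higher RPM of Col1a1 and Bglap and lower RPM of Dmp1 and Mepe than the tibia library.

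**Figure D2:**
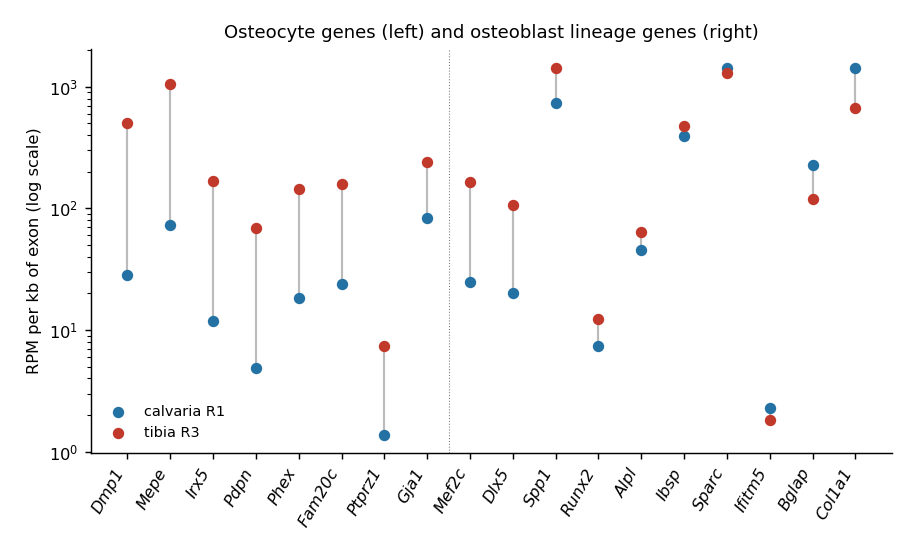
RPM per kb of exon (y axis, log scale) of 8 osteocyte genes and 10 osteoblast lineage genes in the calvaria library (blue) and the tibia library (red). The osteocyte genes drawn on the left are all higher in tibia (log2 ratios from -4.14 to -1.54), and the points close up and then cross towards Bglap (0.93) and Col1a1 (1.07) on the right.

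Transcription factors of embryonic position gave the largest ratios outside muscle. Shox2, a homeobox factor of limb skeletal growth, had 15 reads in calvaria and 4290 in tibia, or 1.05 and 351 RPM, and was 333-fold higher in tibia (log2 ratio -8.29, interval -9.22 to -7.66). Per kb of exon it was the 313th most abundant measured gene in tibia and the 11616th in calvaria. Irx6 had 0 and 120 reads and was at least 46.6-fold higher in tibia when the count of 0 was set to 3 reads. Further T-box and iroquois members followed, with Tbx18 at 5 and 161 reads (-4.98), Tbx3 at 20 and 299 (-4.06), Tbx15 at 0 and 21 and Irx3 at 287 and 1872 (-2.92). Of 13 measured limb patterning factors, 7 were past 2 towards tibia, beside 5.74% of all measured genes. Past 2 towards calvaria were 2 (En1 and Meis2), beside 0.423%. The filter bears on these counts, since Shox2, Irx6, Tbx18 and Tbx15 reached 20 reads only in tibia and En1 and Meis2 only in calvaria. Above 0 were 3 members, and the median was -2.92. Prrx1, an early limb mesenchyme factor, was closer at 136 and 268 reads (-1.19).

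HOX genes, which specify position along the body axis and the limb, were low in both libraries and lower in calvaria. Of 33 HOX genes with a row in the 4 clusters, 12 were measured, all 12 were below 0 and 11 were past 2 towards tibia, with 110 reads in all in calvaria and 1106 in tibia. Since a gene this low in calvaria could be measured only through tibia, the count says little beyond the reads themselves. Hoxc9 had 0 calvaria reads and 306 tibia reads and was at least 119-fold higher in tibia, and Hoxc10 had 0 and 107 and was at least 41.6-fold higher. Hoxb7 had 0 and 51 reads, Hoxc8 0 and 46, Hoxb6 0 and 41 and Hoxb5 0 and 20. Hoxc4 had 3 and 81 reads, a ratio of 31.5 whose interval on the log2 scale ran from -7.28 to -3.38. In each of these genes the calvaria library was at or near 0 reads. A pair of members was shared more evenly, with Hoxb4 at 22 and 103 reads (-2.40) and Hoxc6 at 77 and 189 (-1.51). The remaining HOX rows were 14 without a read in either library and 7 under the minimum in both.

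Few position genes were higher in calvaria, and the 3 that were measured belong to the limb list. En1, an engrailed homeobox factor that acts in both limb patterning and skull vault growth, had 97 reads in calvaria and 7 in tibia, an 11.9-fold difference (log2 ratio 3.39, interval 2.47 to 4.92). Meis2, a homeobox partner of HOX and PBX proteins, had 20 and 3 reads (2.17, interval 0.76 to 4.91), and its relative Meis1 had 309 and 161 (0.72). Zic1, a zinc finger factor of the dorsal head, had 19 calvaria reads and 0 tibia reads and so fell just under the minimum, as did Zic2 at 10 and 0 and Alx1 at 13 and 4. All 13 measured factors of the cranial patterning list were below 0, Twist1 only on the scale of library size. Among them 7 were past 2 towards tibia, and the median was -2.37, but as with the HOX genes the filter bears on this count, since members at 0 in calvaria were measured through tibia alone while Zic1 and Zic2 were left out. The members past 2 included Tfap2a at 0 and 64 reads, Pax9 at 0 and 61, Dlx1 at 0 and 22 and Dlx3 at 143 and 1435 (-3.54). Several of these, such as the DLX and MSX genes, are also made in limb bone. Twist1, a factor of suture and limb mesenchyme, had 163 and 155 reads (-0.15).

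Skeletal muscle transcripts were the most unequal of all the groups. Myh1, a fast myosin heavy chain, had 5 reads in calvaria and 3172 in tibia, or 0.351 and 259 RPM (log2 ratio -9.27, the smallest of the table). Myh4, another fast myosin, had 4 and 2124 reads (-8.95), Acta1, skeletal muscle actin, 25 and 2588 (-6.86), and titin, Ttn, 17 and 2277 (-7.20). Ckm, muscle creatine kinase, had 0 and 155 reads and was at least 60.2-fold higher in tibia. Together the 24 muscle markers with a row held 46.6 RPM in calvaria and 1808 in tibia. Of the 21 that were measured, 20 were below 0, 19 were past 2 towards tibia and the median was -6.40. The exception was Tnnt1, slow troponin T, with 282 and 58 reads (2.04), which is 4.17-fold higher in calvaria. Myosin genes are close in sequence, so the split of reads between Myh1, Myh2 and Myh4 is uncertain. The muscle markers made up 19 of the 761 genes past 2 towards tibia, and their part in the other ratios was not tested. Members such as Myh1, Myh4 and Ckm reached 20 reads only in tibia, so the filter bears on the count. In mouse the summed levels of the list overlapped between the bones, at 2797 and 5021 RPM in calvaria and 781 and 3651 RPM in tibia. Of 23 measured markers 1 was without overlap higher in tibia and 3 in calvaria. Over all measured rat genes with a mouse row, 26.2% were without overlap higher in tibia and 14.1% in calvaria. In macaque 15 of the markers had a row, with summed levels of 9.21 to 11.02 RPM in calvaria and 11.7 to 24.8 RPM in tibia. Of these, 3 were measured, and each of the 3 overlapped between the bones on its own.

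Markers of blood-forming marrow were mostly higher in calvaria. S100a9, a calcium-binding protein of neutrophils, was the most abundant gene per kb in both libraries, with 845225 reads in calvaria and 395241 in tibia (log2 ratio 0.88). Of 17 measured neutrophil markers, 14 were above 0 and the median was 0.88. The summed level of the 18 with a row was 93253 RPM in calvaria and 51694 RPM in tibia. The granule protein genes Camp, at 69737 and 30832 reads (0.96), and Mpo, at 13809 and 13847 (-0.22), showed that the members were not all moved alike. All 17 erythroid markers were above 0 with a median of 0.83 and a summed level of 108587 and 61571 RPM. Among them the alpha-globin gene Hba1 had 682710 and 301420 reads (0.96) and Ahsp, the chaperone of alpha-globin, 53522 and 16618 (1.47). Reads may be shared among the near-identical globin copies and among the defensin genes RatNP-3b, Np4 and Defa5. Gata1, the master factor of red cells, was listed at 0 in both.

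Megakaryocyte and platelet markers were displaced furthest towards calvaria of the blood groups. The 11 measured members were all above 0, 9 were past 1 and the median was 1.42. The platelet chemokine gene Pf4 had 12614 and 4048 reads (1.42), and Gp1ba, a platelet receptor for von Willebrand factor, 990 and 212 (4.01-fold). B lymphocyte markers had a median of 0.74 over 11 measured genes, with Rag2, a recombinase of developing lymphocytes, at 56 and 10 reads (2.15), but Ebf1 at 3725 and 5098 (-0.67), and Cd79a and Pax5 were listed at 0. The summed level of the B lymphocyte list was higher in tibia, at 452 RPM in calvaria and 560 RPM in tibia. LOC680329, annotated as an immunoglobulin lambda-like polypeptide, had 21085 and 2526 reads (2.84) and held the most reads of the genes past 2 towards calvaria. Macrophage markers had a median of 0.14 over 11 genes, with C1qb at 1752 and 1067 reads (0.49). T and NK lymphocyte markers had a median of -0.85 over 10 genes, with Cd8a at 217 and 650 reads (-1.80). Among all 77 measured markers of these blood lineages, 1 was past 2 in each direction, so few of the genes past 2 are such markers, and their part in the other ratios was not tested.

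Most endothelial markers and all pericyte markers were higher in tibia, and the other stromal lists were less uniform. Of 12 measured endothelial markers 11 were below 0, with a median of -1.10, and the tight junction gene Cldn5 had 215 and 770 reads (-2.06), while Vwf, which platelets also carry, had 728 and 503 (0.31). The 10 measured pericyte and smooth muscle markers were all below 0, with a median of -2.17 and 6 past 2, among them the proteoglycan gene Cspg4 at 88 and 784 reads (-3.36) and Rgs5 at 8 and 70 (-3.20). Summed levels were 289 and 617 RPM for the endothelial list and 113 and 374 RPM for the pericyte list. Fibroblast and periosteum markers had a median of -0.79 over 12 genes, none of them past 2, with the chemokine gene Cxcl12 at 14352 and 23549 reads (-0.94), Dcn at 1880 and 1373 (0.23) and Dpt at 35 and 14 (1.04). Adipocyte markers had a median of -0.62 over 10 genes, with Adipoq, encoding adiponectin, at 137 and 205 reads (-0.80) and Pck1 at 30 and 15 (0.73), and keratinocyte markers one of -0.59 over 5. For neuron and glia markers 5 genes were measured on both sides of 0, from Map2 at 6 and 67 reads (-3.50) to Gfap, a filament gene of astrocytes, at 42 and 2 (3.62). The part of these cell types in the other ratios was not tested.

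**Figure D3:**
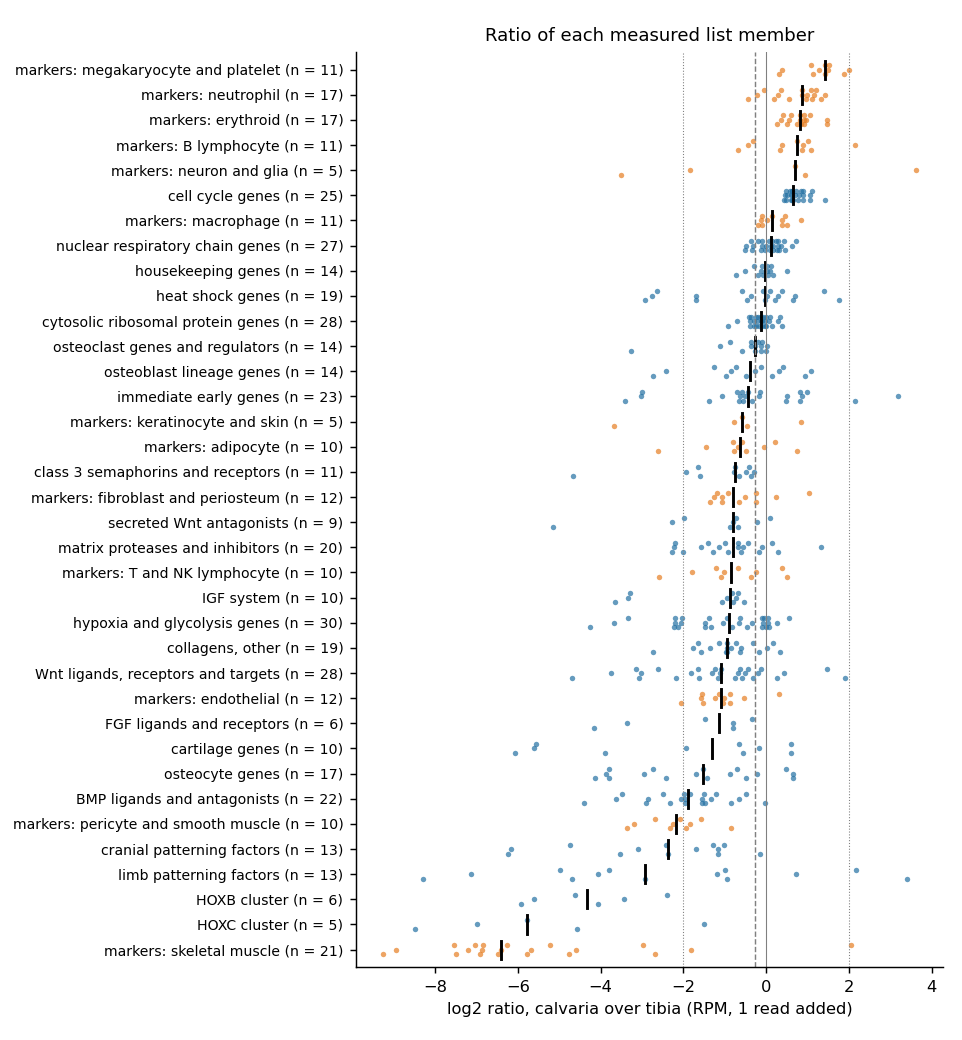
Log2 ratio of calvaria over tibia (x axis) for each measured member of 36 gene lists, with marker lists in orange and the rest in blue. Black bars are list medians, the dashed line is the median of all genes (-0.28) and the dotted lines mark 2 in each direction. Medians run from -6.40 for skeletal muscle markers to 1.42 for megakaryocyte and platelet markers.

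Signalling genes leaned towards tibia, most of all those of the BMP family, growth factors that induce bone and cartilage. All 22 measured members were below 0 (Id2 was above 0 after TMM scaling), 8 were past 2 and the median was -1.90. Among the ligands, Bmp7 had 5 and 108 reads (-4.40), Bmp4 301 and 1085 (-2.07) and Bmp2 492 and 1656 (-1.97). Among the inhibitors, the pseudoreceptor Bambi had 114 and 1213 reads (-3.62), Nog, encoding noggin, 87 and 548 (-2.86), and the inhibitory Smad7 541 and 2623 (-2.50). The target gene Id1 had 831 and 2560 reads (-1.84), whereas Id2 had 1763 and 1547 (-0.03). Ligands, inhibitors and the target genes Id1 and Id3 were thus all higher in tibia. Tgfb2, a TGF-beta ligand outside this list that was chosen after its values were seen, had 605 and 13575 reads, or 42.4 and 1110 RPM, a 26.1-fold difference (-4.71).

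For FGF signalling the receptor gene Fgfr1 had 2653 reads in calvaria and 23379 in tibia, or 186 and 1911 RPM, and was 10.3-fold higher in tibia (log2 ratio -3.36, interval -3.42 to -3.30). The ligand Fgf1 had 15 and 245 reads (-4.16), and the other receptors Fgfr2 and Fgfr3 were nearer to all genes at -0.80 and -0.79. All 6 measured members of the FGF list were below 0, with a median of -1.14. The IGF system, which couples growth hormone to bone growth, had 10 measured members, all below 0, with a median of -0.88. Its binding proteins set it apart, with Igfbp2 at 59 and 648 reads (-3.66), Igfbp3 at 259 and 2264 (-3.34) and Igfbp6 at 12 and 109 (-3.30), beside Igf1 at 2880 and 3951 (-0.68).

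Wnt signalling promotes bone formation and is held back by secreted antagonists of the osteocyte. Tpbg, a membrane inhibitor of Wnt signalling, had 109 and 3337 reads and was 35.7-fold higher in tibia (-5.14), and the decoys Sfrp2, at 70 and 296 (-2.29), and Frzb, at 6 and 23, were also higher there. Of 9 measured antagonists 8 were below 0, with a median of -0.79, and Dkk1 was listed at 0 in both. Of 28 measured ligands, receptors and targets 7 were past 2 towards tibia, 24 were below 0 and the median was -1.09, with Wnt1 at 3 and 88 reads, Wnt16 at 1 and 22, Wnt10b at 16 and 129 (-3.16) and Wnt5b at 114 and 807 (-3.03). Wnt10a and Wnt2 went the other way at 47 and 10 reads (1.90) and 93 and 28 (1.48). The signal transducer Ctnnb1, at 2368 and 2542 reads (-0.32), lay next to the median of all genes. Class 3 semaphorins, guidance proteins with roles in vessels and nerves of bone, and their receptors had a median of -0.75 over 11 genes, all below 0 (Plxna3 just above 0 after TMM scaling), and Sema3e stood out at 11 and 259 reads (-4.66).

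Osteoclast genes were near the median of all genes, with a list median of -0.27 over 14. Acp5, the acid phosphatase of osteoclasts, had 10657 and 11860 reads (-0.37) and the collagenolytic Ctsk 6229 and 6125 (-0.20). The exception was Tnfrsf11b, encoding the osteoclast inhibitor osteoprotegerin, at 57 and 478 reads (-3.27, interval -3.71 to -2.89), and its ligand Tnfsf11 was listed at 0 in both. Cartilage genes divided, since Col9a3 had 1 and 115 reads, Col2a1 0 and 41, Ihh, a signal of growth plate cartilage, 4 and 203 (-5.57) and Chad 3 and 50, whereas the joint lubricant gene Prg4 had 136 and 76 (0.61). Their median was -1.30 over 10 measured genes. The filter bears on it, since Col9a3, Col2a1, Ihh and Chad reached 20 reads only in tibia. Other collagens had a median of -0.94 over 19, from Col18a1 at 57 and 331 reads (-2.74) to Col5a1 at 1852 and 1571 (0.02). Matrix proteases and inhibitors had a median of -0.80 over 20, with Mmp14, a membrane collagenase of osteocytes, at 1395 and 5756 reads (-2.26) and Mmp13 at 5026 and 5814 (-0.43).

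The joint list of hypoxia and glycolysis genes spread widely. Bnip3, a mitophagy receptor, had 31 and 522 reads (-4.25), Ndrg1 2106 and 18408 (-3.35), Aldoc 30 and 342 (-3.69) and the vessel growth factor gene Vegfa 303 and 1095 (-2.07). Bnip3l, a relative of Bnip3 that is abundant in maturing red cells, was higher in calvaria at 18689 and 10957 reads (0.55). The glycolytic enzyme gene Pgk1 had 4813 and 4337 reads (-0.07), Ldha 543 and 502 (-0.11) and Eno1 1270 and 1168 (-0.10). Of the 30 measured genes 9 were past 2 towards tibia, 5 were above 0 and the median was -0.89.

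Immediate early genes, which respond to stimuli within minutes, pointed both ways. Fosb had 221 reads in calvaria and 20 in tibia, a 9.48-fold difference (3.18, interval 2.58 to 3.98), and Fos had 1433 and 275 (2.16). Jun at 885 and 415 reads (0.87) and Dusp1 at 5221 and 2259 (0.99) were also higher in calvaria. Against these stood Egr2 at 72 and 666 reads (-3.41), Egr3 at 3 and 27 and Ctgf, a matrix-associated growth factor gene induced by loading, at 1174 and 8062 (-3.00). Over 23 measured members 8 were above 0, and the median was -0.43. Heat shock genes were similarly divided over 19 members (median -0.04). The small heat shock genes Cryab at 55 and 362 reads (-2.92), Hspb8 at 13 and 81 (-2.77) and Hspb1 at 131 and 703 (-2.64) were higher in tibia, and Hspa8 at 136 and 34 (1.75) and Hspa1b at 179 and 58 (1.39) were higher in calvaria. The rat row of Hspa8 was low beside macaque, where it stood at 2172 to 2572 RPM in calvaria and 2781 to 3023 RPM in tibia. The rat value is therefore given only as listed, and the cause was not tested.

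All 25 measured cell cycle genes were above 0, with a median of 0.65. The proliferation marker Mki67 had 12484 and 7184 reads (0.58), and Tyms, an enzyme of DNA precursor synthesis, 773 and 246 (1.43). Blood markers moved with them, since the erythroid median was 0.83 and the neutrophil median 0.88, and their part was not tested. Genes of general function stayed near 0, with medians of 0.13 for 27 nuclear respiratory chain genes, -0.13 for 28 cytosolic ribosomal protein genes and -0.02 for 14 housekeeping genes, and none of them was past 1. The medians of the osteoclast, heat shock, ribosomal, housekeeping and neuron lists changed sign in at least 1 of the other settings tried, so no direction is given for these lists.

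The genes past 2 towards calvaria were few and thinly covered. Of the 56, 27 carried only provisional locus symbols, and 45 belonged to the lowest of 5 equal bins of genes by mean RPM. Beyond LOC680329, Fosb and Fos, the better covered ones were Osm, encoding the cytokine oncostatin M, at 639 and 109 reads (2.32), the pseudokinase Trib1 at 279 and 40 (2.55), and the interferon-induced genes Ifit3 at 800 and 151 (2.18), Isg15 at 1332 and 284 (4.02-fold) and Oasl at 179 and 28 (2.41). The largest ratio was that of LOC103692192, an uncharacterised locus with 94 calvaria reads and 0 tibia reads (at least 26.9-fold), followed by Fam9b with 63 and 0 (at least 18.02-fold). RGD1562667, annotated as similar to a leukocyte immunoglobulin-like receptor, had 100 and 3 reads (4.44, interval 3.25 to 7.14), the RNA-binding gene Nova1 39 and 1 (4.10, interval 2.50 to 10.40) and the ion channel gene Trpm6 43 and 2 (3.65, interval 2.26 to 7.30). These intervals are wide, as the tibia value rests on 1 to 3 reads.

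Among genes past 2 towards tibia, the 10 with the most reads in that library were Mepe, Dmp1, Fgfr1, Cd44, Ndrg1, Mef2c, Tgfb2, Ctgf, Phex and Mgp. Cd44, a hyaluronan receptor carried by osteocytes, had 3383 and 19359 reads (-2.74), and the mineralisation inhibitor gene Mgp 1496 and 7207 (-2.49). Cxcr7, a scavenging receptor for the chemokine Cxcl12, had 265 and 5502 reads, a 24.2-fold difference (-4.59). Fermt1, an integrin activator of epithelia, had 3 and 467 reads and a ratio of 181 whose log2 interval ran from -9.79 to -5.95. Apart from Fermt1, the genes named in this paragraph are well covered and their intervals are narrow. That does not hold for the whole set. Of the 761 genes past 2 towards tibia, 372 belonged to the lowest of 5 equal bins by mean RPM, and 371 had 100 or more tibia reads.

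The ratio also moved with the length and level of a gene. In 5 equal bins by exonic length the median went from -0.05 in the shortest genes to -0.48 in the longest, and the share past 2 towards tibia went from 4.08% to 7.89%. In 5 equal bins by mean RPM the median went from -0.52 in the lowest to -0.16 in the highest, and the share past 2 towards tibia from 14.0% to 2.45%. Osteocyte genes such as Dmp1 and Mepe belong to the highest bin by level, where few genes were past 2. The part of length and depth in any single ratio was not tested.

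**Figure D4:**
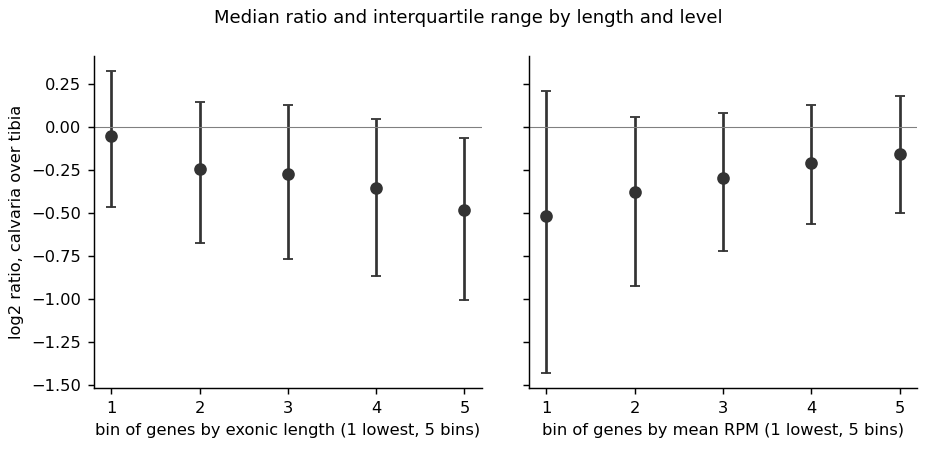
Median log2 ratio of calvaria over tibia (points) and interquartile range (bars, 25th to 75th percentile) in 5 equal bins of the 13247 measured genes, ordered by exonic length (left) and by mean RPM (right). Every median is below 0, from -0.05 in the shortest bin to -0.48 in the longest, and the range is widest in the bin with the lowest RPM.

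The libraries of the other species give the only view of spread, although they are not replicates of the rat. The mice were female C57BL6 aged 4 months, with 3 mice pooled in each library, and each macaque library came from 1 female, whose age is in months by the labels and in years by the study's methods. In mouse, with 2 libraries for each bone, 572 of the rat genes past 2 towards tibia had a row of the same symbol, and in 282 of them (49.3%) both tibia libraries were above both calvaria libraries, beside 26.2% of all 10340 measured rat genes with a mouse row. The opposite order was found in 24. In macaque, with 3 libraries for each bone, 139 of 273 (50.9%) had every tibia library above every calvaria library, beside 27% of 5609, and 14 had the opposite order. Towards calvaria the numbers were small, with 8 of 19 genes without overlap in the same order in mouse (14.1% of all genes) and 1 of 6 in macaque (12.2%). Of these rat calvaria genes, 5 of the 19 had the opposite order in mouse (26.2% of all genes) and 2 of the 6 in macaque (27%). Without overlap in the direction of the rat in both species stood 79 of the 257 genes past 2 towards tibia that had rows in both (30.7%). Over all 5413 genes with rows in both, 494 had that pattern (9.13%). The 79 are 15.99% of those 494, to be read beside 257 of all 5413 genes being past 2 towards tibia. These 79 included Shox2, Irx6, Hoxc10, Hoxb7, Bmp7, Fgf1, Tgfb2, Bambi, Sema3e and Mepe, and Meis2 was the 1 gene towards calvaria.

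Osteocyte genes differed between species in how far they were separated. Mepe in mouse stood at 191 and 299 RPM in calvaria and at 740 and 987 RPM in tibia. In macaque it stood between 4261 and 5297 RPM in calvaria and between 7071 and 18582 RPM in tibia. Dmp1 had 77.4 and 141 RPM in mouse calvaria and 846 and 847 RPM in mouse tibia, but in macaque the bones overlapped, at 142 to 162 and 144 to 257 RPM. Phex likewise was apart in mouse, at 33.6 and 54.8 against 122 and 132 RPM, and overlapped in macaque. Col1a1 and Bglap, which were higher in rat calvaria, overlapped between bones in both other species when libraries were taken singly. The macaque libraries are skull and long bone pairs of single animals. The labels set apart 1 such pair, T1 and T2. In that pair Bglap stood at 3246 RPM in calvaria and 2795 in tibia, whereas Col1a1 stood at 34605 RPM in calvaria and 55300 in tibia. The pairing of the other libraries was not used. In those, Bglap stood at 833 and 1460 RPM in calvaria and 247 and 959 RPM in tibia.

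**Figure D5:**
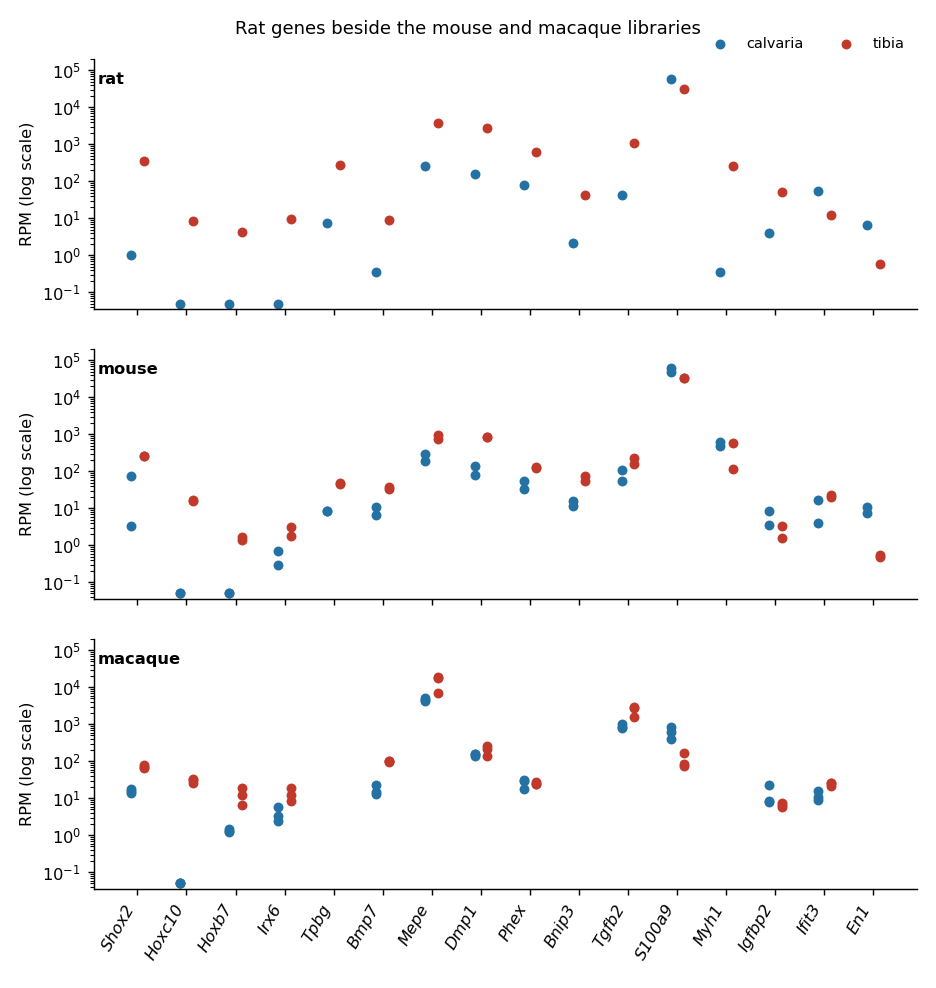
RPM (y axis, log scale) of 16 genes in the rat, mouse and macaque libraries, calvaria in blue and tibia in red, with 1 point for each library. A value of 0 is drawn at 0.05 RPM, levels are to be compared within a gene only, and Tpbg, Bnip3, Myh1 and En1 have no macaque point. Shox2, Hoxc10, Hoxb7, Bmp7, Mepe and Tgfb2 are higher in tibia in every species without overlap, whereas Igfbp2 and Ifit3 change order between rat and the others.

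The genes that the study itself named form a last list, chosen by the study with these libraries in view and so no independent evidence of a direction. Of its 32 genes 27 were measured. The study's rat values are not those of the deposited counts throughout. It reports Dkk1 with a signal in both rat bones and higher in tibia, whereas the deposited counts list Dkk1 at 0 in both, and the cause was not tested. Of 27 measured members 25 were past 2 towards tibia and 1, Fosb, was past 2 towards calvaria. Beyond those described, the cannabinoid receptor gene Cnr1 had 70 and 1266 reads (-4.38), the eye and limb factor Mab21l2 3 and 133, the secreted Ism1 2 and 44, the microtubule gene Mapt 149 and 870 (-2.76), the adaptor gene Dok5 71 and 380 (-2.62), the lipoprotein receptor gene Vldlr 98 and 415 (-2.29) and the matrix gene Sparcl1 1078 and 4435 (-2.26). The glycoprotein hormone gene Stc2 had 21 and 86 reads (-2.20), Nrn1 18 and 72 (-2.16) and Eps8l2 17 and 123 (-3.00).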

How the data were processed

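Poly(A) RNA of rat calvaria and tibia was sequenced in 1 library each, pooled from 2 rats. The authors aligned reads to the rat genome (rn6) and counted them per gene with HTSeq without strand, so reads of overlapping antisense genes cannot be told apart. The submitters' notes name BWA 0.7.10-r789 and edgeR 3.16.5, and the paper names HISAT2 as aligner. The deposited table holds raw read counts, the authors' normalized signal (the count times 1 constant per library, used only for a scaling alternative) and the exonic length (in a column of another kind, used per kb). Rows that name no gene held 0.0478% of calvaria and 0.0663% of tibia reads and were left out.

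Library size was the sum of reads over named rows (14255423 and 12233256). Ratios and list counts came from pandas 2.3.3 under Python 3.11.15, exact intervals from scipy 1.17.1, plots from matplotlib 3.10.9, and TMM and RLE factors from R 4.3.3 (edgeR 4.0.16). The calculation of the ratio was run on simulated data for rat calvaria over tibia over 13011 genes. There, 200 of 200 genes changed by 3 on the log2 scale were past 2, as was 1 unchanged gene. A change of 3 lies beyond the threshold of 2, so this recovery shows only that the calculation returns a change put in. Variation between rats could not be estimated from 1 library for each bone, so the 1 unchanged gene gives no error rate for these libraries. A count of 0 was set to 3 reads for a lower bound. Levels between genes were compared per kb only. Mouse and macaque counts, deposited by the authors in like tables, were matched by symbol and scaled in the same way, each species alone.

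The members, the 39 gene lists and the rule for named genes were chosen with earlier results of these data known, and 2 lists were added after values were seen. The text names genes by this rule: the 15 largest and 15 smallest ratios, the 15 most abundant genes of each library, the 4 largest ratios and most abundant member of each list, osteocyte and osteoblast markers and the genes named by the study. Others in the text were chosen after their values were seen, and not every gene the rule allows is printed. Where a symbol had several rows, lists took the row with most reads. Alternatives changed the scaling, the added reads, the filter and the threshold. With 1 library for each bone no dispersion could be estimated, so edgeR's test was not run. No rat sequence or annotation was used here.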

Additional observations from a re-analysis of the deposited data

Results flagged for a closer look

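In 3 genes the rat ratio past 2 had the opposite order to every mouse and every macaque library. The difference between species was not tested. Igfbp2, an IGF-binding protein gene, had 59 and 648 reads in rat calvaria and tibia (log2 ratio -3.66), whereas it stood at 3.66 and 8.48 RPM in mouse calvaria against 1.58 and 3.39 RPM in mouse tibia, and at 7.82 to 23.3 against 5.78 to 7.42 RPM in macaque. St6galnac2, a sialyltransferase gene, had 376 and 1319 reads (-2.03), with mouse calvaria at 11.5 and 48.8 RPM and tibia at 8.12 and 10.3 RPM, and macaque calvaria at 10.3 to 12.5 and tibia at 6.92 to 9.96 RPM. Ifit3, an interferon-induced gene, had 800 and 151 reads (2.18), with mouse calvaria at 4.09 and 17.3 RPM and tibia at 20.3 and 23.7 RPM, and macaque calvaria at 9.21 to 15.4 and tibia at 21.3 to 26.2 RPM. The margins between the nearest libraries of the bones were small for St6galnac2 and Igfbp2 in both mouse and macaque. They are 3 of 262 genes past 2 with rows in both species, 2 of 257 higher in rat tibia and 1 of 5 higher in rat calvaria. Over all 5413 genes with rows in both, 2.24% were without overlap higher in calvaria in both species and 9.13% in tibia.

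Rows of the rat table that name no gene were used in no comparison and held 0.0478% of the calvaria reads and 0.0663% of the tibia reads.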

How the results depend on the processing

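No paired analysis was possible because the rat libraries are a single pair of skull and tibia. Against 56 genes past 2 towards calvaria and 761 towards tibia, TMM factors gave 102 and 558, RLE factors 99 and 564, and the authors' own scaling 102 and 558. With 5 reads added there were 27 and 628, without a filter 301 and 1568 (of 19284 genes), with 100 or more reads in a library 12 and 371, with 20 or more in both 11 and 321, and past 1 instead of 2 there were 398 (3%) and 2444 (18.4%). The calvaria count thus ranged from 11 to 398, and in each of the settings more genes were higher in tibia, at 83.9% to 96.9%. The authors' scaling, the library size without Rnr1 and Rnr2 (53 and 814) and the run without muscle and blood markers (72 and 632) were chosen after seeing the data. Single genes were followed only through the settings that changed the scaling or the added reads. Of 144 followed genes past 2, none changed sign there and 23 fell under 2 in some. The scaling settings moved each ratio by at most 0.29, and at most 5 reads were added to genes with 20 or more. A gene past 2 could therefore not change sign, and the absence of such changes shows nothing further. Among followed genes not past 2, 75 changed sign. Of 40 list medians 5 changed sign when the scaling, the added reads or the filter was changed. Leaving out a library leaves no ratio, so this was not run. Depth limits genes with few reads, since 3 reads stand for 0.210 RPM in calvaria and 0.245 RPM in tibia.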

Other observations

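Interferon-induced genes were looked at after Ifit3, Isg15 and Oasl had been seen among the genes past 2 towards calvaria, so the list is a description chosen on these values. Of 29 measured members 22 were above 0, 10 were past 1 and 4 were past 2 towards calvaria, and the median was 0.66. Ifit1lb had 1994 reads in calvaria and 394 in tibia (2.12), Irf7, a regulator of interferon genes, 1189 and 318 (1.68), and Rsad2, an antiviral enzyme, 19922 and 7996 (1.10). Cxcl10, at 19 and 59 reads (-1.81), went the other way. In mouse, 20 of 31 members had both tibia libraries above both calvaria libraries and none the opposite order, beside 26.2% and 14.1% of all measured rat genes with a mouse row. In macaque, 5 of 18 were higher in every tibia library and 2 in every calvaria library, close to the 27% and 12.2% of all genes. Whether the species differ was not tested.

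The mitochondrial ribosomal RNAs Rnr1 and Rnr2 together held 4.11% of the calvaria reads and 8.72% of the tibia reads. Rnr2 had 521808 and 961463 reads (-1.10) and Rnr1 64244 and 104961 (-0.93). Both were higher in tibia in the mouse libraries without overlap, at 27840 and 28273 RPM in calvaria and 41194 and 49489 RPM in tibia for their sum. These rows were also chosen after their values were seen.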
